A study of Mus musculus with 2 samples.

Results

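The replication-dependent histone genes are the 64 genes, of 20207 in the authors' gene tables, whose symbol starts with Hist1h, Hist2h, Hist3h or Hist4h. They were taken by symbol alone, not by their values, and were split by histone class and by cluster number. They comprised 6 H1, 17 H2A, 17 H2B, 12 H3 and 12 H4 genes. The Hist1 cluster on chromosome 13 held 50 of them, Hist2 on chromosome 3 held 10, Hist3 on chromosome 11 held 3 and Hist4 on chromosome 6 held 1. Total RNA came from day 6 embryoid bodies, floating clumps of differentiating mouse embryonic stem cells. The cells of both groups carried doxycycline-inducible hairpins against HoxBlinc, a long noncoding RNA of the HoxB locus, so the control held them too, not induced. Doxycycline was withheld for 1 library and added at 2 ug/ml on day 2 for the other, and each is a pool of RNA from cells with 2 different hairpins. The protocol names the stem cell lines R1/E and CGR8 MHC-GFP but not which gave each library, and irradiated feeder fibroblasts were present only before differentiation. HoxBlinc itself was not analysed here, so its level does not check the labels.

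Replication-dependent histones are made in S phase, when new DNA must be packed. H2A, H2B, H3 and H4 form the nucleosome core, and H1 binds the linker DNA between cores. Their genes lack introns and lie in clusters that gather in the histone locus body with the coactivator NPAT. Most of their mRNAs end in a stem-loop instead of a poly(A) tail. Stem-loop binding protein holds that hairpin, which governs 3′ end cutting, translation and rapid decay at the end of S phase.

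With the hairpins induced, histone genes of Hist1 stood lower by share of counts, those of Hist2 and Hist4 stood close to their level without doxycycline, and those of Hist3 stood higher. Summed over the 64 genes, histones took 0.585% of gene counts without and 0.460% with doxycycline. That is 5848 against 4595 CPM (counts scaled to a common gene total), a CPM ratio of 0.786 (exact 95% interval 0.780 to 0.791). All ratios are given as with over without doxycycline, and intervals cover counting error only. Each group held 1 library, so no difference has a replicate check, no test was made and every statement compares these 2 libraries. In RNA from whole embryoid bodies, fewer cells in S phase and less histone RNA per cell cannot be told apart.

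The hairpin known from histone 3′ ends was searched over the whole length of the GENCODE M21 transcripts (GRCm38), and the last match was kept. The sequences below show how it divides the genes. The search, on the sense strand, took a 6-base stem that opens with GG and ends with T, a 4-base loop and a perfectly complementary partner strand. It found such a hairpin in 44 of the 63 genes with a transcript, against 406 of 21814 other protein-coding genes (1.86%). No match says only that these letters are not in the annotated transcript, and many histone models stop at the end of the coding sequence. A match need not lie at the annotated 3′ end: 840 bases follow it in Hist1h1c, 770 in Hist1h4d and 2445 in Hist4h4. Capitals mark stem and loop, written as DNA, with 5 flanking bases on either side.
Hist1h1c: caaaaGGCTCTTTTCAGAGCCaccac
Hist1h2bg: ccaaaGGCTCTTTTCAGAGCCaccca
Hist3h2ba: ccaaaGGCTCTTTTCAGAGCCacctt
Hist1h3e: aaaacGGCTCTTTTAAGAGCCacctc
Hist1h4d: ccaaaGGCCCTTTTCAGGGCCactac
Hist4h4: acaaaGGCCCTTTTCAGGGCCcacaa
Hist1h4j: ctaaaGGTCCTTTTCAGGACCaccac
Hist1h4b: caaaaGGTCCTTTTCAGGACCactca

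The stem followed the class. Of the 33 genes whose stem opens with GGCTCT, 0 were H4 genes, while all 9 with GGCCCT and both with GGTCCT were H4 genes. A single hairpin, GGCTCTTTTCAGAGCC, was shared by 25 genes of the other 4 classes. It did not separate genes by their difference: its 20 members with a level high enough to read had CPM ratios from 0.559 to 1.37, and Hist1h2bg and Hist3h2ba, printed above, lay at 0.913 and 1.37. Among measured Hist1 genes the median CPM ratio was 0.742 over 24 genes with GGCTCT and 0.798 over 6 with GGCCCT, and the ranges overlapped. The GGTCCT genes, Hist1h4b and Hist1h4j, lay at 0.477 and 0.551, the lowest ratios of the H4 class. That pair was noticed after the values were seen.

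Levels were compared between genes per length, as RPKM. The highest was Hist2h2bb at 560 RPKM without and 500 RPKM with doxycycline, followed by the H4 gene Hist1h4d at 483 and 355 RPKM. H4 genes held 39.6% of the summed histone RPKM without doxycycline and 37.4% with it. H2B genes held 25.6% and 29.9%, H3 genes 13.2% and 12.8%, H1 genes 12.3% and 10.9%, and H2A genes 9.27% and 8.94%. The H2B share was the only one of the 5 to be higher with doxycycline. Counts were present at 58 genes without and 57 with doxycycline. Listed at 0 in both were Hist2h3c1, Hist2h2aa1, Hist2h2aa2, Hist2h3b, Hist1h2ao and Hist1h4m, and Hist1h2ad had 1 and 0 counts. A listed 0 need not mean absent RNA, since these genes share sequence with other histone genes, as given further below.

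**Figure D1:**
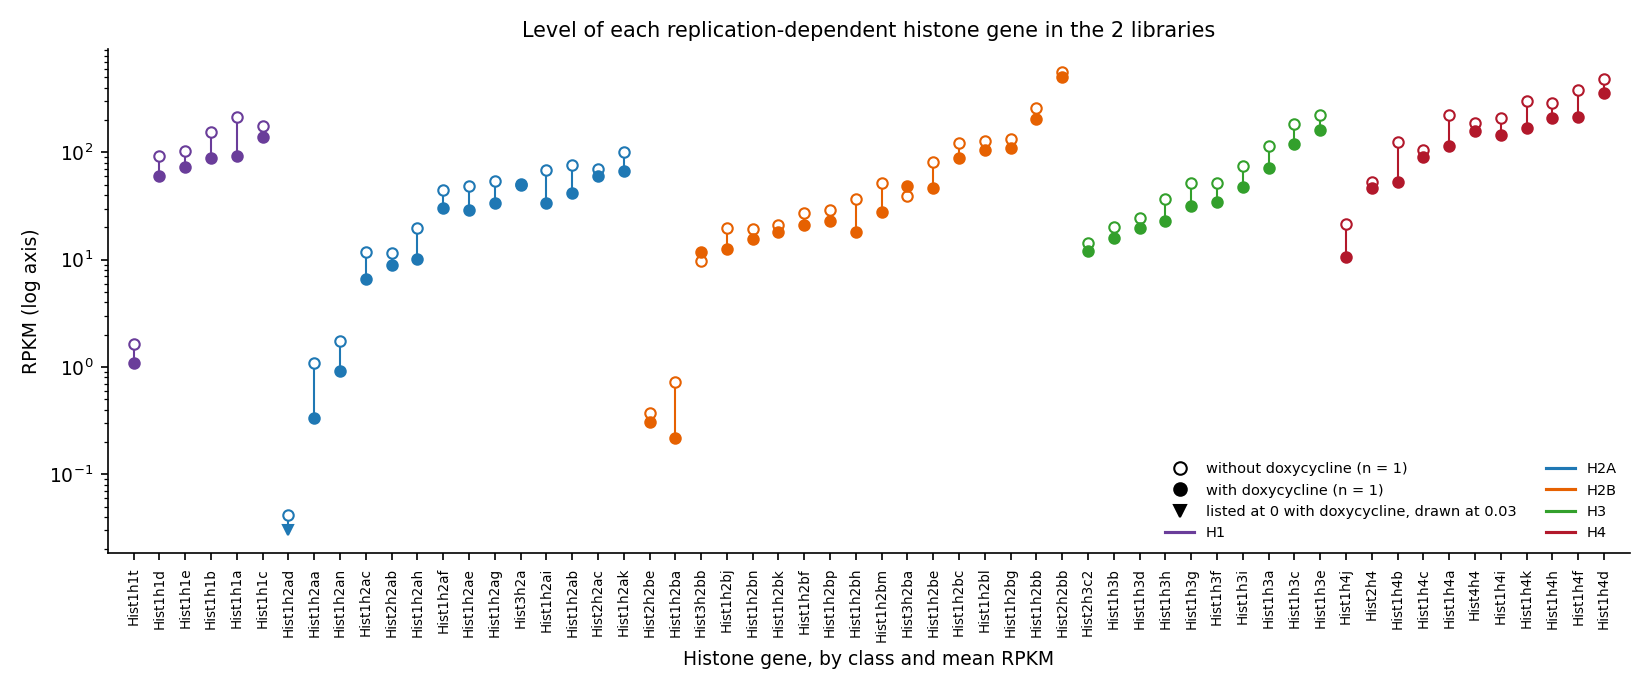
RPKM (log axis) of each of the 58 histone genes with counts in either library, ordered by class and mean level; open points are the library without and filled points the library with doxycycline (n = 1 each), and a triangle marks a gene listed at 0. Filled points lie below open ones except at Hist3h2a, Hist3h2ba and Hist3h2bb, and Hist2h2bb is highest in both libraries.

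A gene was called measured at 1 RPKM or more in the higher library, which kept 55 histone genes of 11063 genes in all. On the log2(RPKM + 0.5) scale, 2 of the 55, Hist1h1a and Hist1h4b, were at least 2-fold lower, where 2.64% of all measured genes were. None was at least 2-fold higher, where 0.262% of all were. At 3.64% of members, the 2-fold count was close to the background. A fold of 1.5, chosen after seeing the values, took 26 histone genes lower, or 47.3%, against 9.23% of all measured genes, and 0 higher against 1.08%. All 26 lie in Hist1. The median log2 ratio was -0.55 for the histone genes and -0.18 for all measured genes.

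By CPM, 52 of the 55 had a ratio below 1, where 54.6% of all measured genes with unchanged coordinates did. The exact interval lay below 1 for 40 genes and above 1 for 3. Among all such genes these shares were 36.8% and 28.6%. Genes with 2 counts outnumbered those with 1, by 846 to 583 without doxycycline, so mates of a read pair may have been counted singly and intervals were also taken with all counts halved: 36 then lay below 1 and 3 above, against 30.2% and 22.8% of all. The RPKM values imply another scaling than the gene totals, by a factor of 1.12, which shifts the median log2 ratio of all genes from -0.03 on CPM to -0.18 on RPKM. Differences on the 2 scales should be read against those medians. Under edgeR's TMM scaling 49 of the 55 genes had a ratio below 1, the 3 that crossed being Hist2 genes.

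**Figure D2:**
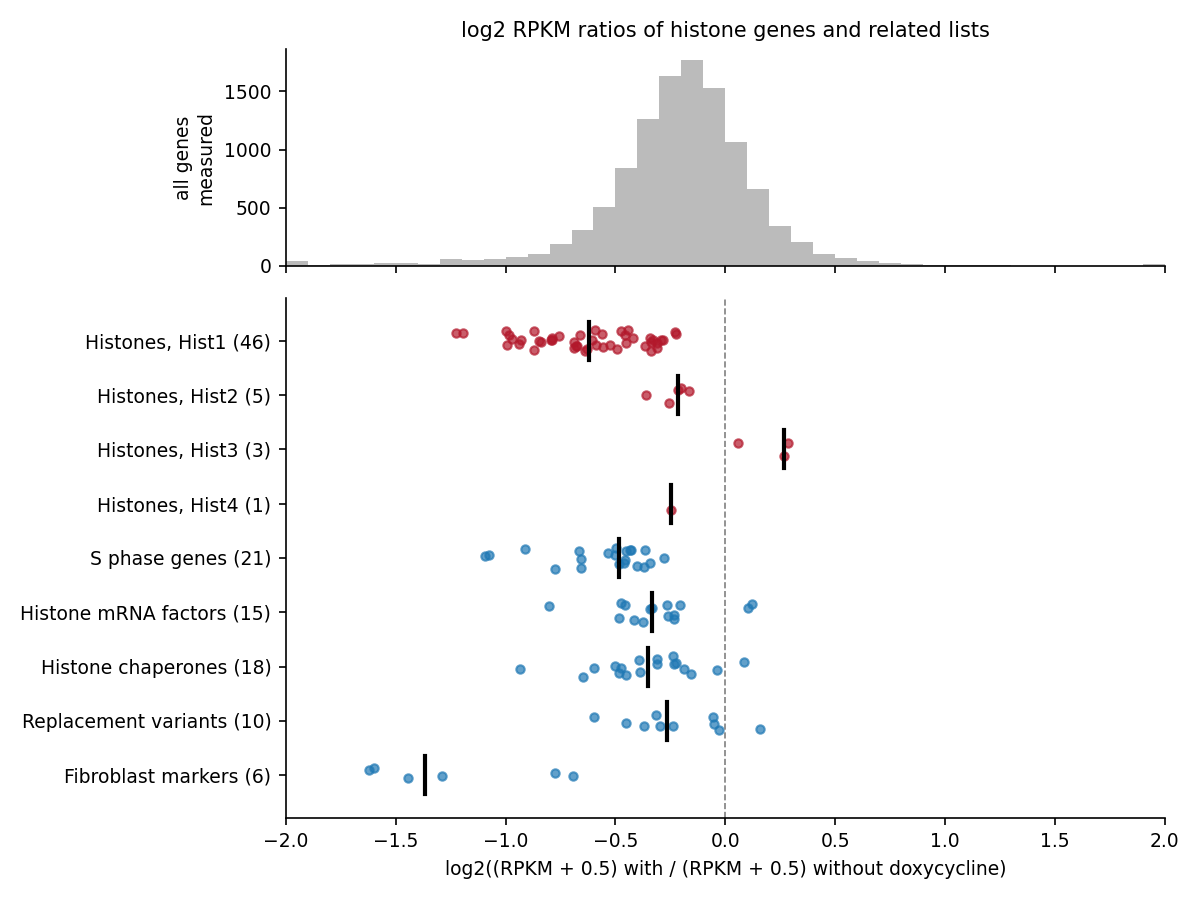
Distribution of the log2(RPKM + 0.5) ratio, with over without doxycycline: above, the number of all 11063 measured genes per bin of 0.1, with ratios past 2 in size in the end bins; below, each measured gene of the histone clusters (red) and of related lists (blue), with a bar at the median. Hist1 genes lie at or below -0.22, Hist3 genes lie above 0 and the 21 S phase genes all lie at or below -0.28.

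Linker histone genes differed widely in their ratios. Hist1h1a, an H1 gene, had 9744 counts (213 RPKM) without and 3207 counts (92.9 RPKM) with doxycycline, a CPM ratio of 0.489 (0.470 to 0.509). Hist1h1c, another H1 gene, had 16770 counts (175 RPKM) and 9999 counts (139 RPKM), a CPM ratio of 0.886 (0.864 to 0.909). Hist1h1a was thus the highest H1 gene by RPKM without doxycycline and Hist1h1c with it, and their intervals lie far apart. Hist1h1b had 6355 counts (154 RPKM) and 2766 counts (89.1 RPKM), a CPM ratio of 0.647 (0.618 to 0.677). Hist1h1d and Hist1h1e, the other somatic H1 genes, lay between, at CPM ratios of 0.741 and 0.796. The H1 sum went from 1672 to 1241 CPM, a ratio of 0.742 (0.732 to 0.752).

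H2A genes of Hist1 had the lowest summed CPM ratio of the classes in that cluster, though their median log2 RPKM ratio, -0.77, was above the -0.84 of its H4 genes. Its 10 measured H2A genes had CPM ratios from 0.343 to 0.760, and 9 of the 10 intervals lay below 1, against 36.8% of all measured genes. The 0.343 is that of the germ cell gene Hist1h2aa, which reached 1 RPKM only without doxycycline, as did Hist1h2an at 0.602, and the lowest of the others was 0.556. Hist1h2ak, with the highest RPKM of them, had 2414 counts (100.2 RPKM) without and 1233 counts (67.85 RPKM) with doxycycline, a CPM ratio of 0.759 (0.708 to 0.813). Hist1h2ab had 2367 counts (76.35 RPKM) and 970.6 counts (41.5 RPKM), a CPM ratio of 0.610 (0.565 to 0.657). Hist1h2ai went further, from 1643 counts (68.2 RPKM) to 615.3 counts (33.9 RPKM), a CPM ratio of 0.556 (0.506 to 0.611). Outside Hist1 the measured H2A genes all stood above this range. Hist2h2ac had 1664 counts (69.6 RPKM) and 1081 counts (59.97 RPKM), a CPM ratio of 0.966 (0.894 to 1.04), and Hist2h2ab had a CPM ratio of 0.866 (0.709 to 1.055). Hist3h2a had 6007 counts (49.3 RPKM) without and 4717 counts (51.3 RPKM) with doxycycline, a CPM ratio of 1.17 (1.12 to 1.21).

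The sum over all 17 H2A genes therefore hides a split. It went from 580 to 480 CPM, a ratio of 0.828 (0.810 to 0.847), but Hist3h2a alone made up 28.0% of it without and 39.4% with doxycycline. Without Hist3h2a the ratio was 0.696. Within Hist1 the H2A sum had a ratio of 0.660 (0.640 to 0.680).

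H2B genes stood highest of the classes, though they too were lower in Hist1. The H2B sum went from 1538 to 1336 CPM, a ratio of 0.869 (0.857 to 0.881), and within Hist1 the ratio was 0.788 (0.774 to 0.801). Hist2h2bb had 16930 counts (560 RPKM) without and 11390 counts (500 RPKM) with doxycycline, a CPM ratio of 1.00 (0.976 to 1.02). This gene, the most abundant of the 64 by counts and by RPKM, took the same share of counts in both libraries within counting error. Hist1h2bb had 7424 counts (259 RPKM) and 4423 counts (204.5 RPKM), a CPM ratio of 0.886 (0.853 to 0.919). Hist1h2bg had 5051 counts (134 RPKM) and 3102 counts (109 RPKM), a CPM ratio of 0.913 (0.873 to 0.955). The 12 measured H2B genes of Hist1 ranged from 0.559 for Hist1h2bh to 0.959 for Hist1h2bk, with a median CPM ratio of 0.877. Hist1h2be, at 0.644, has a gene model that overlaps Hist1h1e, so reads of those 2 genes could not be assigned with certainty. At 12060 counts without and 5221 with doxycycline, it holds the most counts of the Hist1 H2B genes. Without it the H2B sum had a ratio of 0.930. No sum without it was taken within Hist1, and the pairs of class sums below include it.

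H3 genes stayed within a narrow range. Hist1h3e had 5627 counts (223.5 RPKM) without and 3054 counts (161 RPKM) with doxycycline, a CPM ratio of 0.807 (0.772 to 0.843). Hist1h3c had 5406 counts (184 RPKM) and 2673 counts (120.5 RPKM), a CPM ratio of 0.735 (0.701 to 0.770). Hist1h3a had 3727 counts (114 RPKM) and 1754 counts (71.05 RPKM), a CPM ratio of 0.700 (0.661 to 0.741). All 9 H3 genes of Hist1 lay between 0.690 and 0.8995, and 7 of their intervals lay below 1, against 36.8% of all measured genes. The only measured H3 gene elsewhere, Hist2h3c2, had a CPM ratio of 0.932 (0.837 to 1.04). The H3 sum went from 671 to 506 CPM, a ratio of 0.755 (0.739 to 0.771).

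H4 genes spread more widely than H3 genes, although they encode almost the same protein. Hist1h4d had 9233 counts (483 RPKM) without and 5117 counts (355 RPKM) with doxycycline, a CPM ratio of 0.824 (0.796 to 0.852). Hist1h4f had 7352 counts (385 RPKM) and 3082 counts (214 RPKM), a CPM ratio of 0.623 (0.597 to 0.650). Hist1h4h had 8289 counts (288 RPKM) and 4568 counts (210.3 RPKM), a CPM ratio of 0.819 (0.790 to 0.849). The interval of Hist1h4f overlaps neither of the others. The lowest was Hist1h4b, with 2372 counts (124 RPKM) without and 760.8 counts (52.8 RPKM) with doxycycline and a CPM ratio of 0.477 (0.439 to 0.518). The H4 sum went from 1387 to 1031 CPM, a ratio of 0.743 (0.732 to 0.755).

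Class sums were compared in 10 pairs by the ratio of their CPM ratios, with exact intervals. The H1, H3 and H4 sums did not differ beyond counting error: the H1 ratio was 0.983 times the H3 ratio (0.958 to 1.01) and 0.998 times the H4 ratio (0.978 to 1.02), and the H3 ratio was 1.02 times the H4 ratio (0.989 to 1.04). The 7 other intervals excluded 1. The H2B ratio was 1.17 times the H4 ratio (1.15 to 1.19), and the H2A ratio was 1.11 times the H4 ratio (1.08 to 1.14). The H2A ratio was 0.953 times the H2B ratio (0.928 to 0.978). Within Hist1 it was 0.838 times the H2B ratio (0.809 to 0.867), and its order against H4 turned round, at 0.913 times the H4 ratio (0.882 to 0.945). There the H1 ratio was 1.03 times the H4 ratio (1.01 to 1.05) and the H3 ratio 1.04 times (1.01 to 1.06). With halved counts both of these intervals held 1. The H1 ratio was 0.992 times the H3 ratio within Hist1 (0.966 to 1.02).

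**Figure D3:**
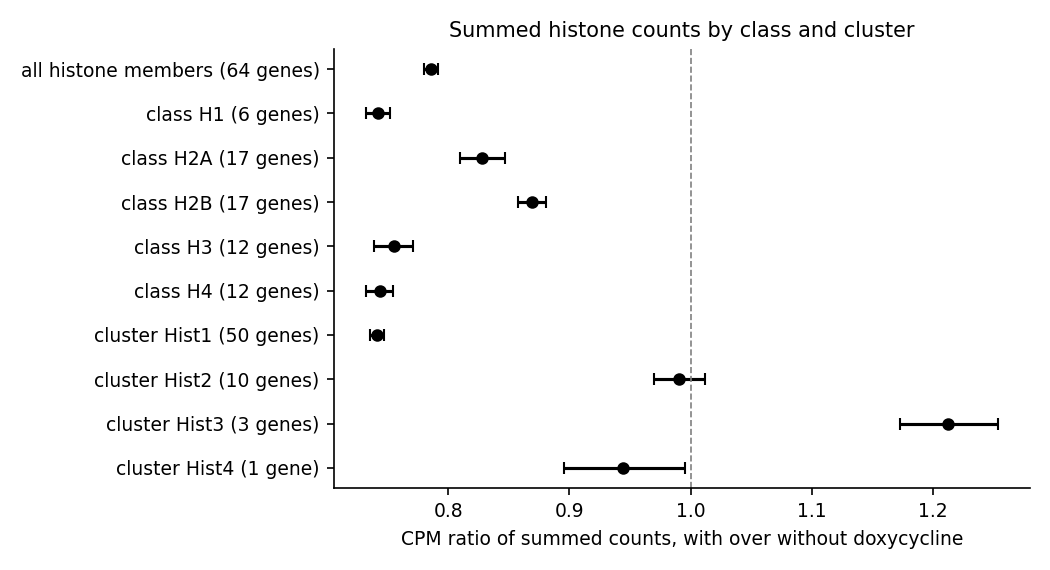
CPM ratio, with over without doxycycline, of counts summed over all 64 histone genes, over each class and over each cluster; points are the ratios of 1 library to 1 library and bars are exact 95% intervals for counting error. Hist1 lies at 0.741, Hist2 at 0.991 with an interval that holds 1, and Hist3 at 1.21.

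Clusters differed more than classes. Hist1 went from 4976 to 3689 CPM, a ratio of 0.741 (0.735 to 0.747), Hist2 from 566 to 560.5 CPM, a ratio of 0.991 (0.970 to 1.01), and Hist3 from 210.1 to 255 CPM, a ratio of 1.21 (1.17 to 1.25). Hist4, which is Hist4h4 alone, had 3563 counts (186 RPKM) without and 2263 counts (157 RPKM) with doxycycline, a CPM ratio of 0.944 (0.895 to 0.995), and with halved counts that interval held 1. The Hist1 ratio was 0.748 times the Hist2 ratio (0.731 to 0.766) and 0.611 times the Hist3 ratio (0.591 to 0.632). Of 6 cluster pairs only Hist2 and Hist4 did not differ beyond counting error, at 1.05 (0.991 to 1.11). These comparisons between clusters do not depend on how the libraries were scaled. The Hist2 sum itself is mostly Hist2h2bb, at 80.8% and 81.5%, and its direction flips with the scaling, from 0.884 with the RPKM denominators to 1.03 with TMM. Only 6 of the 10 Hist2 genes had counts.

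All 46 measured genes of Hist1 had a CPM ratio below 1, where 54.6% of all measured genes did. Their intervals lay below 1 for 39 genes, against 36.8% of all. The ratios ran from 0.343 to 0.959, with a median of 0.726. Without Hist1h2aa the lowest was 0.477. The cluster lies between 21807632 and 24026720 on chromosome 13 (mm9, as in the authors' tables) and falls into 3 stretches parted by at least 200000 bases. From the lower end, the stretch from Hist1h2bl to Hist1h4m had a summed CPM ratio of 0.698 (0.683 to 0.713), that from Hist1h2ah to Hist1h2bj 0.760 (0.735 to 0.786), and that from Hist1h4h to Hist1h2aa 0.748 (0.741 to 0.754). Each stretch held genes from below 0.58 to above 0.91. Of 47 other genes within the span 3 were measured. The zinc finger genes Zfp184 and Zfp322a had CPM ratios of 1.03 (0.892 to 1.18) and 1.26 (1.18 to 1.35), and Abt1, an activator of basal transcription, had 0.711 (0.672 to 0.753).

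**Figure D4:**
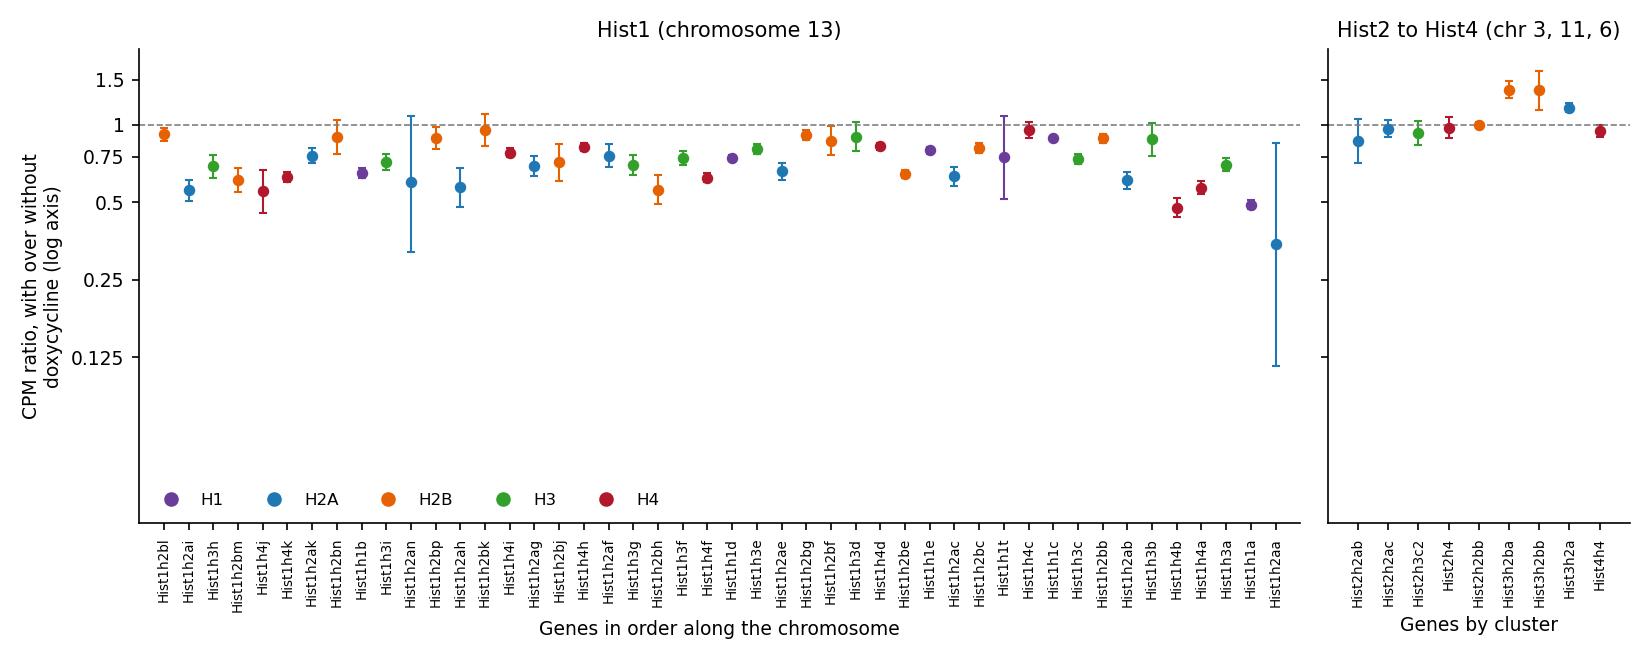
CPM ratio (log axis), with over without doxycycline, of each measured histone gene in its order along the chromosome, coloured by class; bars are exact 95% intervals for counting error (n = 1 library per group). The 46 Hist1 genes lie below 1 along the whole cluster and the 3 Hist3 genes lie above 1 by CPM.

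The 3 genes of Hist3 (chromosome 11, 58762413 to 58770176, mm9) were the only measured histone genes whose CPM interval lay above 1, where 28.6% of all measured genes did. Hist3h2ba had 1500 counts (39.5 RPKM) without and 1382 counts (48.2 RPKM) with doxycycline, a CPM ratio of 1.37 (1.27 to 1.47). Hist3h2bb had 275.9 counts (9.68 RPKM) and 253 counts (11.8 RPKM), a CPM ratio of 1.36 (1.14 to 1.62). Hist3h2a is given above. All 3 intervals stayed above 1 with halved counts, and the summed ratio was 1.08 to 1.27 under the other scalings of counts. In the authors' RMS-normalized RPKM, where the median ratio of all measured genes is 0.741, their ratios were 1.04 for Hist3h2ba, 1.03 for Hist3h2bb and 0.885 for Hist3h2a, so Hist3h2a turns direction there.

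Many H2A and H2B genes lie head to head and share the DNA between their starts. In 10 such pairs the gene models were 179 to 334 bases apart, and in 7 both partners were measured. The H2B partner had the higher CPM ratio in all 7 pairs, which all lie in Hist1, and in 4 the intervals did not overlap. Among the 7, Hist1h2an had only 42.02 and 16.67 counts and reached 1 RPKM only without doxycycline. In the Hist2 pair, Hist2h2be was not measured, and its ratio of 0.917 (0.592 to 1.40) lay below the 0.966 of Hist2h2ac. In the pair of Hist1h2ae and Hist1h2bg the H2A gene had 2121 counts (49.2 RPKM) without and 939.5 counts (28.9 RPKM) with doxycycline, a CPM ratio of 0.659 (0.609 to 0.712) against 0.913 for its partner. The H2A gene Hist1h2ai lay at 0.556 beside Hist1h2bl at 0.919 (0.867 to 0.975). Partners are next to each other and read from the same libraries, so the order of partners does not depend on scaling. By class median, H2A genes share more sequence with other histone genes than H2B genes do, as given further below. Within the 7 pairs the H2B gene shared more beside Hist1h2ae, Hist1h2ac and Hist1h2ak, and the H2A gene shared more in the others. The part of shared sequence in the difference was not tested.

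**Figure D5:**
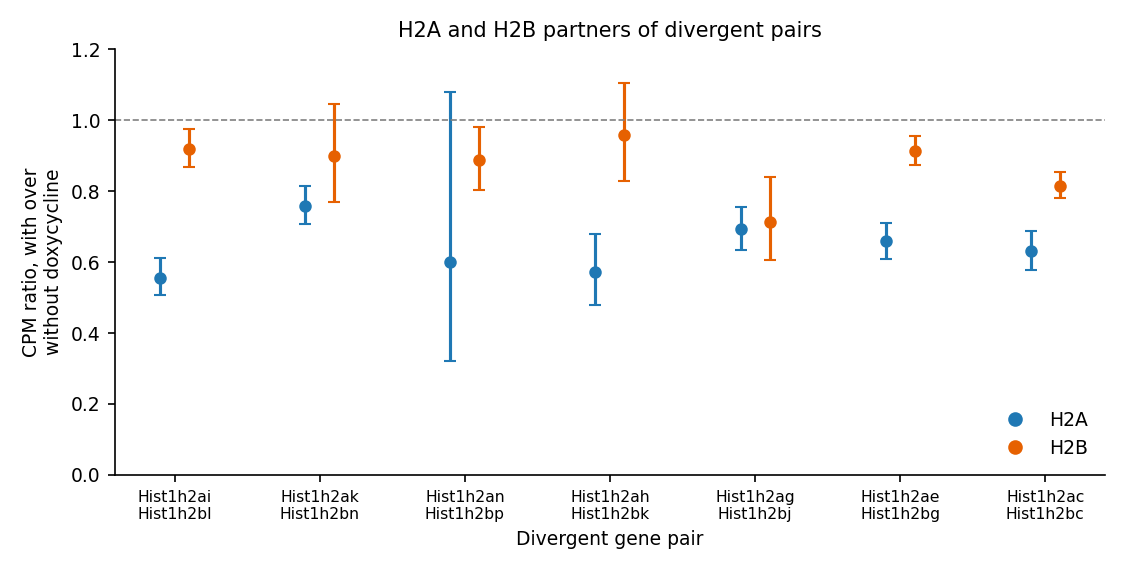
CPM ratio, with over without doxycycline, of the H2A (blue) and H2B (orange) gene of each of the 7 divergent pairs with both partners measured; bars are exact 95% intervals for counting error (n = 1 library per group). The orange point is above the blue point in every pair, by least for Hist1h2ag and Hist1h2bj.

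Promoters are printed for genes at the ends of the comparison, as the 150 bases before the RefSeq start: the lowest H1 and H4 genes, an H2B gene of a divergent pair and the highest Hist3 gene. Capitals mark CCAAT, the site known for the factor NF-Y, TATAA, letters of the TATA box, and ATTTGCAT, the octamer known in histone promoters. Matches were taken on either strand and anywhere in the 150 bases, so a TATAA mark need not be a TATA box. In Hist1h4b both TATAA marks lie at the end far from the start. Coordinates are of GRCm38.p6, and all 4 genes are on the plus strand.
Hist1h1a (chr13:23763518-23763667): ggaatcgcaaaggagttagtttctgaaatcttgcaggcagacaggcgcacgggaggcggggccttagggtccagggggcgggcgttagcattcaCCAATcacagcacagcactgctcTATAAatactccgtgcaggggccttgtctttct
Hist1h4b (chr13:23756787-23756936): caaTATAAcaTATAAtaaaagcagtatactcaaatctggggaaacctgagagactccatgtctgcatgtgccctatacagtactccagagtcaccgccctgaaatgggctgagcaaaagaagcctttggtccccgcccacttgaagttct
Hist1h2bg (chr13:23571250-23571399): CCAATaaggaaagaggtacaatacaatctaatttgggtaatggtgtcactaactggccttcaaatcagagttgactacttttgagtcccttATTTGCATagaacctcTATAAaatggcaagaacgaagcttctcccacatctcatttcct
Hist3h2ba (chr11:58948761-58948910): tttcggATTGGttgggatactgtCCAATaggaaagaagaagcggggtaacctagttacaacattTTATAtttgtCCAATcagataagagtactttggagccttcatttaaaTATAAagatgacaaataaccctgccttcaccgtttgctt

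RefSeq gave a promoter for 58 of the 64 genes, matched through older symbols. CCAAT lay in 82.8% of these stretches, against 24.4% of 32792 other promoters of the same length. It was in all 6 H1, 17 H2A and 14 H2B stretches, in 8 of 10 for H3 and in 3 of 11 for H4. TATAA lay in 53.4% against 14.1%, and ATTTGCAT in 17.2% against 0.967%, in 5 H2A and 5 H2B genes and in 0 of the other classes. Among measured Hist1 genes the median CPM ratio was 0.735 over 37 with CCAAT and 0.625 over 6 without it, and 0.644 over 8 with ATTTGCAT and 0.735 over 35 without it. The ranges overlapped in both cases, and a match is a description of the letters, not of binding.

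Germ cell histones were near the lower limit. Hist1h1t, the testis H1, had 91 counts (1.63 RPKM) without and 46 counts (1.09 RPKM) with doxycycline, and its CPM ratio of 0.751 had an interval of 0.515 to 1.08. Hist1h2aa and Hist1h2ba, a testis pair, had 26 and 16.9 counts (1.09 and 0.718 RPKM) without and 6 and 3.893 counts (0.333 and 0.219 RPKM) with doxycycline. Their CPM ratios were 0.343 (0.115 to 0.852) and 0.350 (0.0856 to 1.07), and with halved counts both intervals held 1. Of the male germ cell markers the protamine and transition protein genes were at 0 or 1 count, and Ddx4 had 487 and 226 counts. Chemosensory receptor genes, used as a background level, had reads at 670 of 1270 genes without and 80 with doxycycline. Their trimmed mean of 0.0168 RPKM without doxycycline corresponds to 0.9402 of the 91 Hist1h1t counts and to 41.4 counts over all 64 genes.

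Some histone genes also give polyadenylated RNA, as known for their human counterparts, and 5 of 6 such genes were measured. Hist1h2ac had 1790 counts (11.7 RPKM) without and 758.7 counts (6.58 RPKM) with doxycycline, a CPM ratio of 0.630 (0.578 to 0.687). Hist1h2bc had 5487 counts (123 RPKM) and 3010 counts (89.4 RPKM), a CPM ratio of 0.815 (0.780 to 0.853). Hist1h2bk had 493.3 counts (21.1 RPKM) and 317.7 counts (18.0 RPKM), a CPM ratio of 0.959 (0.830 to 1.11). Hist1h1c and Hist4h4 are given above, and Hist2h2be had 60 and 37 counts (0.374 and 0.306 RPKM). The 5 spanned CPM ratios from 0.630 to 0.959, with a median log2 RPKM ratio of -0.34.

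Genes that act in S phase stood lower as a list too. All 21, among them the helicase subunits Mcm2 to Mcm7 and the DNA clamp Pcna, had a log2 RPKM ratio below 0, where 76.9% of all measured genes did, and 2 were at least 2-fold lower, where 2.64% of all were. After centring on the median of all genes 0 were 2-fold lower, from CPM per length 1, and with RMS-normalized RPKM 4. Their median log2 ratio was -0.48, and the summed CPM ratio of the 19 with unchanged coordinates, 0.784 (0.776 to 0.791), was close to that of the histones. The lowest were Tk1, thymidine kinase, at 15.3 RPKM without and 6.92 RPKM with doxycycline, and Ccne1, cyclin E, at 22.2 and 10.3 RPKM. The highest log2 ratio was that of Rrm1, a ribonucleotide reductase subunit, at 40.1 and 32.97 RPKM.

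Factors that transcribe and process histone mRNA did not stand as low by their median log2 ratio, -0.34 against -0.55 for the histone genes. Of 15 measured, 0 were at least 2-fold lower or higher, where 2.64% and 0.262% of all measured genes were. Npat, the coactivator of histone genes, had 4333 counts (9.62 RPKM) without and 3528 counts (10.4 RPKM) with doxycycline, a CPM ratio of 1.21 (1.16 to 1.26). Slbp, the stem-loop binding protein, had 3938 counts (39.4 RPKM) and 2152 counts (28.5 RPKM), a CPM ratio of 0.812 (0.770 to 0.856). Npat and Lsm10, a subunit of the U7 particle at 1.38 (1.21 to 1.58), were the 2 whose interval lay above 1, where 28.6% of all did. Below 1 lay 11 of the 15 intervals, against 40 of 55 for the histone genes and 36.8% of all measured genes. Lsm11, the U7 partner of Lsm10, lay at 0.852, Casp8ap2, a histone locus body protein, at 0.794, and Zfp473, a U7-associated zinc finger protein, at 0.765. The lowest was Sympk, the scaffold of the cutting complex, at 0.637 (0.615 to 0.661).

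Replacement histones are made outside S phase too and carry poly(A) tails. None of 10 measured was at least 2-fold apart, where 2.64% of all measured genes were lower and 0.262% higher. The median log2 ratio of the list was -0.27. H3f3b and H3f3a, both encoding the variant H3.3, had CPM ratios of 1.25 (1.23 to 1.27) and 1.08 (1.05 to 1.10). H1f0, the linker histone of resting cells, had 1.08 (1.04 to 1.12), and H2afz, which encodes H2A.Z, had 0.913 (0.891 to 0.935). The lowest was Cenpa, the centromeric H3 variant, at 0.734 (0.685 to 0.785). Over the list 6 of 10 intervals lay below 1 and 4 above, where 36.8% and 28.6% of all measured genes did. The sum over all found members went from 2499 to 2622 CPM, a ratio of 1.05 (1.04 to 1.06), where that of the replication-dependent genes was 0.786. H3f3b held the most counts of the list, 27090 without and 22800 with doxycycline, and weighs heavily in the sum. No sum without it was taken. On the RPKM scale this sum and H3f3a turned the other way, from 1077 to 983 and from 232 to 223 RPKM, and so did H1f0, from 44.8 to 43.1 RPKM, while H3f3b went from 222 to 247.5 RPKM. Among 18 histone chaperones 0 were 2-fold apart, beside the same 2.64% and 0.262% of all, and the median log2 ratio was -0.35. Of their intervals 13 lay below 1 and 2 above, against 36.8% and 28.6% of all. The ends were Asf1b, which hands H3 and H4 to the assembly factors, at a CPM ratio of 0.551 (0.477 to 0.635), and Rbbp7, a histone-binding subunit of several complexes, at 1.19 (1.17 to 1.21).

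Other features of the libraries moved with these results, and 2-fold counts here stand beside 2.64% of all measured genes lower and 0.262% higher. Depth was 37046449 gene counts without and 24924921 with doxycycline, and 3 counts stood at 0.0810 and 0.120 CPM. Pluripotency markers were present in both, with 5 of 5 measured, a summed RPKM of 139 and 101 and 0 at least 2-fold apart, and Pou5f1 at 45.4 and 32.1 RPKM. Of 7 measured germ layer markers 3 were 2-fold lower, among them the vascular mesoderm receptor Kdr, and 1 was higher, the primitive streak gene T. Those 3 reached 1 RPKM only without doxycycline and T only with it, so these calls depend on the filter. The summed RPKM of the germ layer list was 19.2 and 12.98. Of 6 measured fibroblast markers 4 were 2-fold lower, with a summed RPKM of 93.2 and 50.2, and none was at 0. Pdgfrb among the 4 reached 1 RPKM only without doxycycline. RNAs that have no poly(A) tail mostly went the other way, though 4 of 17 measured had a log2 RPKM ratio below 0. Of the 17, 7 were at least 2-fold higher and 0 lower, but Snord83b and Rnu11 among the 7 reached 1 RPKM only with doxycycline. The summed RPKM of this list was 30540 and 37630, mostly Rmrp. The part of cell makeup and of RNA selection in the histone differences was not tested.

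Near-identical copies limit what single genes show. The share of 50-base windows of a gene's transcript that also occur in another histone transcript had a median of 43.2%. It was 67.1% for H2A, 57.2% for H3, 39.2% for H2B, 33.5% for H4 and 1.11% for H1. Of the genes listed at 0 in both libraries, Hist2h2aa2 shared 100% of its windows, Hist2h2aa1 89.2%, Hist2h3b 79.7% and Hist1h2ao 75.4%. Hist1h4m shared 40.5% and Hist2h3c1 34.7%. The gene models of Hist2h2aa1 and Hist2h2aa2 overlap each other, and that of Hist2h3c1 overlaps Hist2h3c2. Whether reads of these genes were left out or given to other copies was not tested. Counts that were not whole were given for 13 of 18 histone genes under 1000 counts, against 9.48% of other genes in that range. The 6 Hist1 genes that share at most 10% of their windows had a median CPM ratio of 0.694, and the 40 others 0.726. These 6 are the H1 genes Hist1h1a, Hist1h1b, Hist1h1c, Hist1h1d and Hist1h1t and the germ cell gene Hist1h2aa. With no H2B, H3 or H4 gene among them, this split cannot show what shared sequence does to the ratios of those classes. Hist2h2bb, Hist3h2ba, Hist4h4, Hist1h1a and Hist1h1b shared 0 windows, and these alone spanned CPM ratios from 0.489 to 1.37.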

How the data were processed

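Gene tables of 1 library without and 1 with doxycycline were used. Reads were paired-end, and the submitters' processing notes list Bowtie2 and mm9. Which annotation, counter and strand setting made the counts is not given in the sources used here. Per the file headers, the authors gave estimated counts, RPKM, an RMS-normalized RPKM (the ratio of RPKM to the library's root mean square) and a Z-score. The deposited score was not used. Deposited estimated counts carry 4 significant digits and were rounded to whole numbers for intervals.

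Library tables were joined by gene symbol, since the merged tables are misaligned by row. CPM ratios used total gene counts, with exact conditional binomial (Clopper-Pearson) 95% intervals, and ratios between sums were conditional odds ratios. Log2 ratios used RPKM + 0.5. With 1 library a group there is no p-value. Count ratios were not read for 237 genes whose coordinates differ between the tables, none of them a histone gene.

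Named genes were the 3 of each class with the highest mean RPKM, the 3 highest and 3 lowest log2 ratios with a mean RPKM of at least 1, all of Hist3 and Hist4, germ cell genes, genes with polyadenylated human counterparts, fixed pathway genes and, in other lists, the 2 extremes. Other genes named were chosen after their values were seen. Members and lists were chosen with earlier results of these data known. Alternatives were pseudocounts of 0.1 and 1, filters, centring, scalings (edgeR 4.0.16 TMM and median-of-ratios factors), halved counts, background subtraction and sums without some members. Steps were tested on simulated data. Python 3.11.15, pandas 2.3.3, scipy 1.17.1 and R 4.3.3 were used.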

Additional observations from a re-analysis of the deposited data

How the results depend on the processing

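The count of histone genes at least 2-fold lower was 6 with a pseudocount of 0.1 and 15 with the authors' RMS-normalized RPKM, against 3.67% and 4.65% of all genes, and 26 at a fold of 1.5. Their median log2 ratio was -0.37 after centring on all genes, -0.79 with RMS-normalized RPKM and -0.39 from CPM per length. Filters, a pseudocount of 1 and the merged table left the 2-fold counts within 1.5 times and the median log2 ratio within 0.1. Both are fixed limits, not measured variation.

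Summed ratios scaled by the RPKM denominators were 0.701 for all genes, 0.662 for H1, 0.739 for H2A, 0.775 for H2B, 0.673 for H3, 0.663 for H4, 0.661 for Hist1, 0.884 for Hist2, 1.08 for Hist3 and 0.842 for Hist4. Scaled by median-of-ratios factors they were 0.820, 0.774, 0.864, 0.907, 0.787, 0.775, 0.773, 1.03 and 1.26 up to Hist3, and by TMM 0.821, 0.775, 0.865, 0.908, 0.788, 0.776, 0.774, 1.03 and 1.27. Hist2 is the only sum whose direction these scalings turn. Without its most abundant gene a sum was 0.768 for all, 0.689 for H1, 0.696 for H2A, 0.814 for H2B, 0.726 for H4, 0.727 for Hist1, 0.953 for Hist2 and 1.37 for Hist3. Without genes that overlap another gene, an alternative added after seeing the data, all genes gave 0.793, H1 0.729 and H2B 0.930. Halved counts and background subtraction moved no sum beyond its interval.

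No paired analysis was possible because each group held 1 library. Depth limits the germ cell genes and Hist1h2ad, whose counts are few. Pooling 2 hairpins, the unknown stem cell line of each library and the unknown counting of shared reads limit every value.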

Other observations

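Neither gene length nor the length of RNA after the hairpin set the measured Hist1 genes apart. The median CPM ratio was 0.715 over 30 genes with a span under 500 bases and 0.742 over 16 longer ones, with ranges of 0.343 to 0.959 and 0.489 to 0.913. It was 0.714 over 15 genes with at most 100 annotated bases after the stem-loop and 0.751 over 17 with more, and these ranges overlapped too.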
